A study of Mus musculus with 6 samples.

Results

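The genes examined here make and carry intestinal IgA, and they comprise Igha, Ighm, Jchain, Pigr, Mzb1, Prdm1, Irf4 and Sdc1. They were taken by symbol from the deposited count table, which held all 8 of them among 33017 genes. The data are mRNA counts from the small intestine of mice, with 3 model libraries (model 1 to 3) and 3 control libraries (control 1 to 3). The title of the series names simulated microgravity and radiation as the cause of an intestinal immune disorder, and the design text speaks of the joint effect of both factors. The title also names a protective compound, with which none of these 6 libraries is labelled. The labels give only model or control and the tissue for each library, with no strain, sex, age, dose, duration, intestinal segment or animal. Nothing in the labels ties a library to its own mouse. The p-values are therefore set against library-to-library spread alone, and how much of that spread is technical was not tested.

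IgA is the main antibody of the gut. Plasma cells in the lamina propria secrete it as a dimer held together by the J chain, and the polymeric immunoglobulin receptor on the basal side of epithelial cells takes the dimer up and carries it to the lumen. The transcription factors encoded by Irf4 and Prdm1 (BLIMP-1) drive B cells into the plasma cell state, Mzb1 encodes an endoplasmic reticulum chaperone that assists antibody assembly, and Sdc1 encodes CD138, a surface proteoglycan of plasma cells that epithelial cells also carry.

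Promoter windows of the 2 genes that join IgA to its transporter, Jchain and Pigr, are shown because the J chain is made by the plasma cell and the receptor by the epithelium. Each window is from RefSeq (GRCm38.p6) and runs from 250 bases before the annotated start to 50 bases from it, 5′ to 3′ on the gene's strand. Jchain lies at chr5:88527848-88528147 on the minus strand and Pigr at chr1:130826434-130826733 on the plus strand of that build, which is not the build of the counts. Capitals mark matches to CACGTG (an E-box of the type bound by USF factors) or AAANNGAAA (a core bound by interferon regulatory factors). Both strands were searched, also for ATGCAAAT (the octamer of B cell promoters).
Jchain: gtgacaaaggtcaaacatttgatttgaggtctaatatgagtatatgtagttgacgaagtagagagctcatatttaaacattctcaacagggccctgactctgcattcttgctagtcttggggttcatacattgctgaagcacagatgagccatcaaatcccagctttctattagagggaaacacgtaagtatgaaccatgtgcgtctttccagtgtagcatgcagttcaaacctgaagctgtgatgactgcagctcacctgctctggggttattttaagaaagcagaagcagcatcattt
Pigr: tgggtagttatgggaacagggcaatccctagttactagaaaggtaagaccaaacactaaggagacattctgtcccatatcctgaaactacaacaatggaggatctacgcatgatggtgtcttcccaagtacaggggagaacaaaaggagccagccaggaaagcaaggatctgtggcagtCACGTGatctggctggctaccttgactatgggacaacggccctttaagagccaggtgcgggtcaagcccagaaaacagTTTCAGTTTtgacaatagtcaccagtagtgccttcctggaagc
The Pigr window held 1 E-box, starting at base -71 relative to the annotated start, and 1 interferon regulatory factor core on the opposite strand, whose first base in the window is base 8 after it. These matches do not overlap. A TATA box (TATAAA) was searched in the same way and was not found in either window. None of the 4 motifs occurred in the Jchain window, which says only that these letters are not there. Of 32841 windows of the same length, 7.15% held the E-box, 10.6% the interferon regulatory factor core, 1.74% the octamer and 13.6% the TATA box.

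Library totals lay between 35007515 and 45285564 counts, and 15904 genes had enough counts to be tested, with 7 of the 8 members among them. Libraries were not alike in tissue content. Control 3 had a summed level of 2275 CPM (counts on a common scale, relative to the TMM-adjusted library total) for 5 markers of the distal small intestine, against 20.8 to 84.6 CPM in the other 5 libraries, and 250 CPM for 8 markers of the proximal small intestine, against 4182 to 7013 CPM in the others. Markers of the exocrine pancreas summed to 7288 CPM in model 3 and to between 5.11 and 31.3 CPM elsewhere. Smooth muscle markers summed to 1220.0, 909.5 and 919 CPM in the model libraries, against 1214, 1829 and 2044 CPM in the control libraries. The part of these differences in the results below was not tested, and values without single libraries are given beside a number of them.

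**Figure D1:**
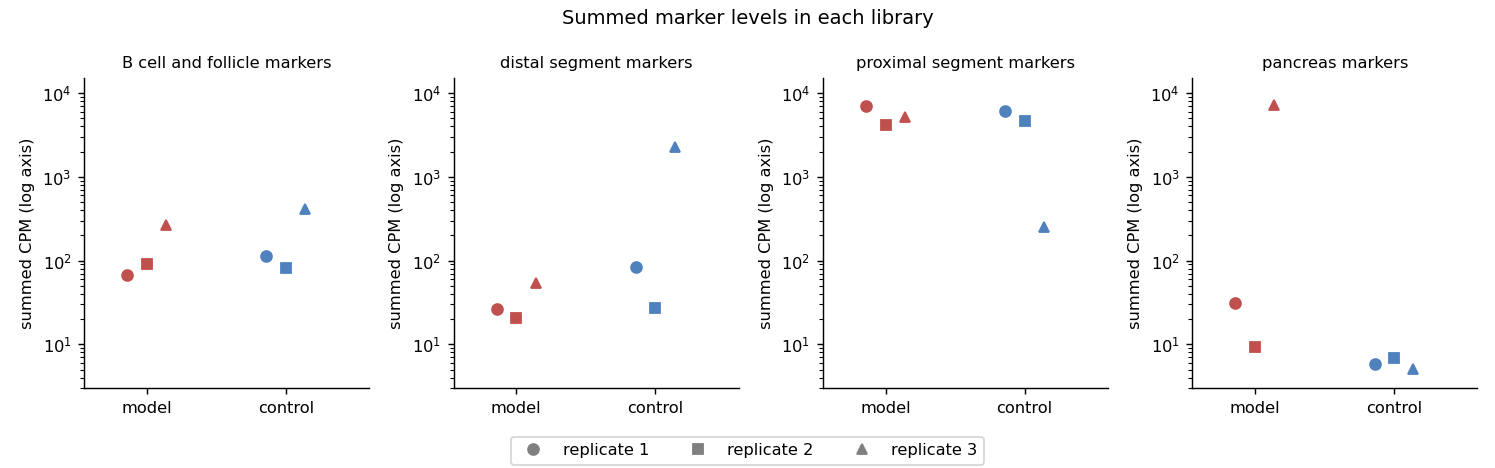
Summed CPM of 4 marker lists in each library on a log axis, with model left of control and a symbol for each replicate number. Control 3 stands apart in distal markers (2275 CPM) and proximal markers (250 CPM), model 3 in pancreas markers (7288 CPM), and model 3 and control 3 have the most B cell marker counts (265 and 416 CPM).

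None of the 7 tested members differed between model and control tissue beyond the spread of the libraries. Igha and Jchain had higher means in model tissue, Pigr lay between 6636 and 9099.9 CPM in 5 of the 6 libraries, and Irf4 and Prdm1 had almost equal group means. By edgeR's quasi-likelihood test with Benjamini-Hochberg adjustment 0 of the 7 were called, where the same test called 0 of all 15904 genes (0%). At an unadjusted p under 0.05 edgeR gave 0 of the 7 members, against 765 of all tested genes (4.81%). The groups overlapped for each of the 7, while they did not overlap for 11.1% of all tested genes. DESeq2, run as an alternative, called 25 genes (0.157%) and none of the members. In bulk tissue, fewer cells of a type and less RNA per cell cannot be told apart.

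**Figure D2:**
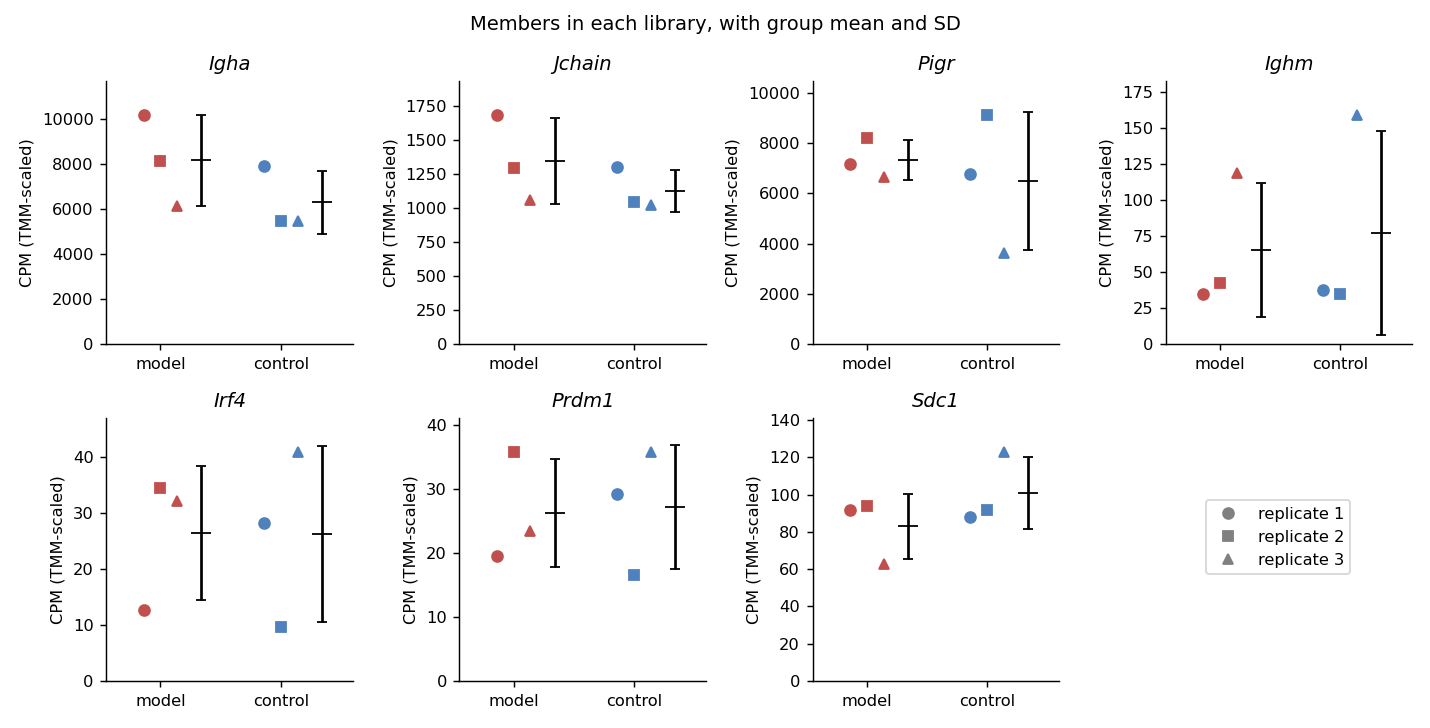
Level of each of the 7 members with counts, in CPM on a linear axis from 0, for model (left) and control (right) libraries, with a symbol for each replicate number and the group mean ± SD beside them (n = 3 each). The groups overlap in every panel, and Ighm stands high in model 3 (119 CPM) and control 3 (159 CPM).

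Igha, the constant region of the IgA heavy chain, was measured at 10166 CPM in model 1, 8160.1 CPM in model 2 and 6159 CPM in model 3, against 7926 CPM in control 1, 5485 CPM in control 2 and 5495 CPM in control 3. On this TMM scale every model library was above control 2 and control 3, and control 1 lay above model 3, so the groups overlapped. That order depends on the scaling, with TMM factors of 0.83 in model 1, 0.97 in model 3 and 1.17 in control 3. Deposited Igha counts were 231380 in control 3 and 216159 in model 3, at library totals of 36158165 and 36182282 counts. The means were 8162 ± 2004 CPM in model tissue and 6302 ± 1407 CPM in control tissue (SD, n = 3 each). The fitted log2 fold change was 0.37 (SE 0.36, 95% interval -0.47 to 1.22, edgeR adjusted p = 0.852). It was 0.18 without model 1, and 0.16 with library size as the sole scaling, which shifts the median of all genes by -0.19.

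Jchain, the small protein that joins IgA monomers and binds the epithelial receptor, had 1683, 1299 and 1059.8 CPM in model 1 to 3, against 1305, 1049 and 1027 CPM in control 1 to 3. On the TMM scale all 3 model libraries were above control 2 and control 3, and control 1 was above model 2 and model 3. This order too depends on the scaling. Deposited Jchain counts were 43257 in control 3 and 37195 in model 3, at library totals of 36158165 and 36182282 counts. The log2 fold change of Jchain was 0.26 (SE 0.29, 95% interval -0.42 to 0.93, edgeR adjusted p = 0.858). It was 0.07 without model 1, and 0.04 with library size as the sole scaling, which shifts the median of all genes by -0.19.

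The antibody transporter gene Pigr was at 7151, 8182 and 6636 CPM in model 1 to 3, against 6776, 9099.9 and 3623 CPM in control 1 to 3. Control libraries held both the highest and the lowest value, and the 3 model libraries lay between them. The lowest value came from control 3, the library with the distal markers. The means were 7323 ± 787 CPM in model tissue and 6499 ± 2749 CPM in control tissue (SD, n = 3 each), with a log2 fold change of 0.17 (SE 0.41, 95% interval -0.79 to 1.14, edgeR adjusted p = 0.926). Without control 3 the log2 fold change was -0.10.

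Ighm, the constant region of IgM, which naive B cells carry on their surface and which the same epithelial receptor can also transport when secreted, had 34.9, 42.8 and 119 CPM in model 1 to 3, against 37.8, 34.7 and 159 CPM in control 1 to 3. A single library in each group, model 3 and control 3, was far above the other 4. The log2 fold change was -0.23 (SE 0.70, 95% interval -1.88 to 1.41, edgeR adjusted p = 0.943). The 15 B cell and follicle markers summed to 68.1, 92.1 and 265 CPM in model 1 to 3, against 114, 82.0 and 416 CPM in control 1 to 3, and so had their highest sums in the same 2 libraries. Of these markers 14 were tested, 0 were called, and 0 had groups that did not overlap. All 14 had negative log2 fold changes, with a median of -0.72 against -0.02 over all tested genes. The median was 0.99 without control 3, -2.69 without model 3 and -0.60 without both libraries, where 13 of these markers were tested. The defining marker Ms4a1 (CD20) was listed at 0 in all 6 libraries, and the most abundant tested markers, Blnk and Cd22, measured 47.9 ± 6.36 and 12.4 ± 14.2 CPM in model tissue and 52.1 ± 4.38 and 18.6 ± 22.5 CPM in control tissue. Without control 3 the log2 fold change of Ighm was 0.86, without model 3 it was -0.98, and without both libraries it was 0.10, a fit chosen after the data were seen.

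Irf4, which is required for plasma cell formation and is also used by T cells and dendritic cells, was at 12.6, 34.5 and 32.2 CPM in model 1 to 3, against 28.3, 9.65 and 40.9 CPM in control 1 to 3. Model 1 and control 2 were low, and the other 4 libraries were at least 28.3 CPM. The log2 fold change was 0.01 (SE 0.56, 95% interval -1.30 to 1.31, edgeR adjusted p = 0.997). It was -0.37 without control 2 and 0.49 without control 3, and it was also negative (-0.19) with library size as the sole scaling, which shifts the median of all genes by -0.19.

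Prdm1, the repressor that closes the B cell program in plasma cells and is also present in some T cells and epithelial cells, had 19.6, 35.7 and 23.4 CPM in model 1 to 3, against 29.2, 16.6 and 35.8 CPM in control 1 to 3. As for Irf4, the lowest library of each group was model 1 in the model group and control 2 in the control group. The log2 fold change was -0.05 (SE 0.34, 95% interval -0.85 to 0.76, edgeR adjusted p = 0.978), and it was 0.22 without control 3.

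Sdc1 was at 91.9, 93.9 and 62.9 CPM in model 1 to 3, against 87.9, 91.7 and 123 CPM in control 1 to 3. Model 3 was the lowest library and control 3 the highest, with the other 4 between 87.9 and 93.9 CPM. The log2 fold change was -0.28 (SE 0.24, 95% interval -0.83 to 0.27, edgeR adjusted p = 0.851), and leaving out control 3 gave -0.10, leaving out model 3 gave -0.11 and leaving out both gave 0.05.

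Mzb1 was listed at 0 in all 6 libraries and could not be tested. The light chain constant genes Igkc, Iglc1 and Iglc3 were also listed at 0 throughout, although antibody cannot be made without light chains and Igha was among the most abundant transcripts. These zeros were therefore not read as absence of the transcripts, and how reads of these genes were assigned is not given in the sources used here. Another light chain constant gene, Iglc2, did have counts, at 16.7 ± 5.15 CPM in model tissue and 12.6 ± 1.12 CPM in control tissue.

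**Figure D3:**
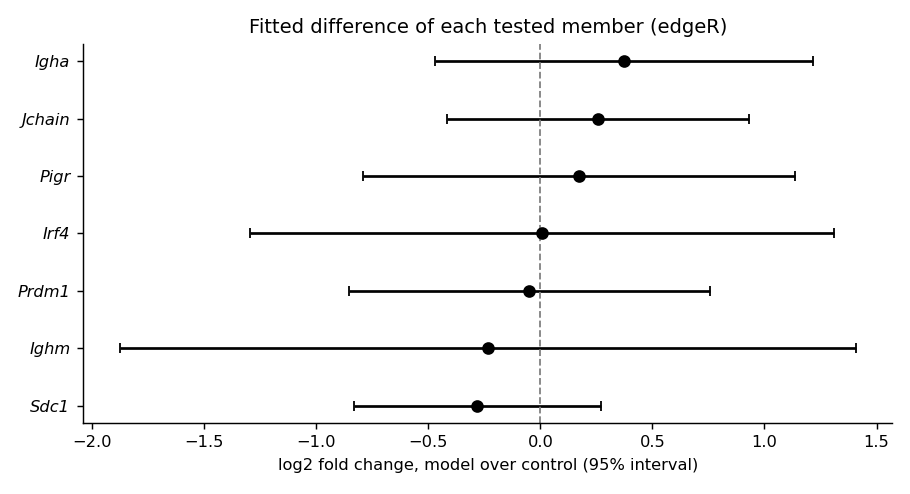
Log2 fold change of each tested member, model over control, with 95% intervals from edgeR. Each interval spans 0, from the narrow one of Sdc1 (-0.83 to 0.27) to the wide one of Ighm (-1.88 to 1.41).

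Per kilobase of annotated exon, the members spanned a wide range of levels. Igha stood first, at 3059 ± 751 CPM per kb in model tissue and 2362 ± 527 CPM per kb in control tissue (SD, n = 3 each), which ranked 4 in model and 3 in control tissue among 15367 genes with a known length. Pigr followed with 1819 ± 196 CPM per kb in model tissue and 1615 ± 683 CPM per kb in control tissue. Every model library had more Igha than any had Pigr on this scale, whereas the control ranges of the 2 genes overlapped. Jchain had 535 ± 125 CPM per kb in model tissue and 448 ± 61.3 CPM per kb in control tissue, below Pigr in each library. Ighm was above Sdc1 in model 3 (63.1 against 16.5 CPM per kb) and control 3 (84.2 against 32.2 CPM per kb), and below it in every other library. The ranges of Ighm and Sdc1 overlapped in both groups, at 34.7 ± 24.6 and 21.8 ± 4.56 CPM per kb in model tissue. In control tissue their means were 40.9 ± 37.5 and 26.5 ± 5.03 CPM per kb. Irf4 and Prdm1 were lowest and likewise overlapped, at 5.39 ± 2.45 and 4.71 ± 1.51 CPM per kb in model tissue and 5.36 ± 3.21 and 4.87 ± 1.75 CPM per kb in control tissue.

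Ratios of counts within a library do not depend on how libraries are scaled to each other. Igha counts were 6.04, 6.28 and 5.81 times those of Jchain in model 1 to 3, against 6.07, 5.23 and 5.35 times those of Jchain in control 1 to 3. The highest ratio was 1.2 times the lowest, while Igha itself varied by 1.85 times and Ighm by 4.58 times between libraries. The difference in mean log2 ratio was 0.13 (SE 0.07), with control 1 inside the model range (exact two-sided permutation p = 0.3, adjusted p = 0.84 over 6 ratios). With 3 libraries against 3 the smallest p this test can give is 0.1.

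The ratio of Igha to Ighm was 292, 191 and 51.8 in model 1 to 3, against 209, 158 and 34.6 in control 1 to 3. Model 3 and control 3, the libraries with the most B cell marker counts, had the lowest ratios. The difference in mean log2 ratio was 0.44 (SE 1.10, exact permutation p = 0.6), and it was -0.36 without control 3. Ighm per Jchain count had a difference of -0.32 (SE 1.06, exact permutation p = 0.6), which was 0.46 without control 3.

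Pigr counts per count of Epcam, an adhesion molecule of all intestinal epithelial cells, were 3.32, 6.78 and 5.26 in model 1 to 3, against 5.31, 5.96 and 2.23 in control 1 to 3. Model 1 and control 3 were low, and the difference in mean log2 ratio was 0.25 (SE 0.54, exact permutation p = 0.7). It was -0.20 without control 3. The 11 epithelial markers summed to 19562, 12925 and 13132.5 CPM in model 1 to 3, against 14421, 14060.2 and 15385 CPM in control 1 to 3, with Krt8 and Vil1 the most abundant (log2 fold changes -0.12, SE 0.34, and 0.03, SE 0.27). Of these 11 markers 0 were called and their median log2 fold change was 0.03, against -0.17 with library size scaling and -0.04 with upper quartile scaling, and -0.17 without model 1. Over all tested genes the median was -0.21 with library size scaling and -0.09 with upper quartile scaling.

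Igha per Pigr count, antibody heavy chain against its transporter, was 1.42, 0.997 and 0.928 in model 1 to 3, against 1.17, 0.603 and 1.52 in control 1 to 3. The control libraries again enclosed the model libraries (difference in mean log2 ratio 0.10, SE 0.44, exact permutation p = 0.9), and the difference was -0.28 without control 2. Sdc1 per Epcam count was 0.0427, 0.0778 and 0.0499 in model tissue, against 0.0689, 0.0600 and 0.0757 in control tissue, with a difference of -0.31 (SE 0.28, exact permutation p = 0.4). Leaving out model 1 gave -0.13 and leaving out model 2 gave -0.56. The remaining ratio that was planned, Mzb1 to Jchain, could not be computed because Mzb1 was listed at 0. All 6 ratios had an adjusted p of at least 0.84.

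**Figure D4:**
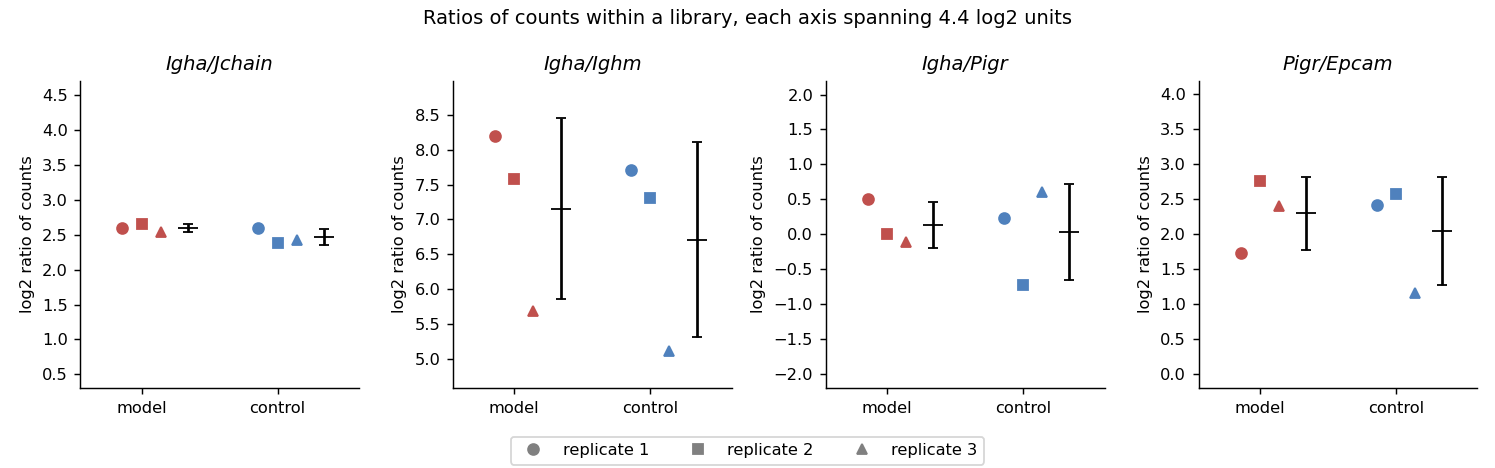
Log2 ratio of counts of 2 genes within each library, with model left of control, group mean ± SD (n = 3 each) and all 4 axes of equal length. Igha/Jchain lies between 2.39 and 2.65 in all 6 libraries, whereas Igha/Ighm spans 8.19 in model 1 and 5.11 in control 3.

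The closest linear relations between members were in 2 pairs, neither of which passed adjustment. Across the 6 libraries, log2 CPM of Igha and Jchain had a Pearson r of 0.98 (exact permutation p = 0.0056) and a Spearman rho of 0.89 (exact permutation p = 0.033), and r was 0.99 without model 1 and control 2, the libraries farthest from the median of Igha. Irf4 and Prdm1 had an r of 0.91 (exact permutation p = 0.0069) and a rho of 0.94 (exact permutation p = 0.017), and r was 0.78 without control 2 and control 3, the libraries farthest from the median of Prdm1. Among all 21 pairs of members none passed adjustment, with a smallest adjusted p of 0.073 for r (exact permutation test, both of these pairs) and 0.175 for rho. Ighm and Irf4 also had a rho of 0.94 (exact permutation p = 0.017, adjusted p = 0.175), with an r of 0.67 (exact permutation p = 0.081). Igha and Irf4, a heavy chain gene and a factor of the cells that make it, had an r of -0.14 (exact permutation p = 0.74), and Igha and Prdm1 one of 0.01 (exact permutation p = 0.98). Model 1, with the highest Igha level on the TMM scale and the smallest TMM factor (0.83), had the lowest Irf4 and Prdm1 of the model group. The points share library scaling, and the groups, with 3 libraries each, are too small for a correlation within them.

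Ighm and Pigr had an r of -0.81 (exact permutation p = 0.026, adjusted p = 0.18), which was -0.02 without model 3 and control 3, so that r rests on these libraries. Their rho over all 6 libraries was -0.83 (exact permutation p = 0.058, adjusted p = 0.245). Among 12440 other genes with at least 1 CPM in every library, the profiles most like that of Igha over the 6 libraries were those of Nyap1 (r = 0.99), Sf3b4 (0.98) and Gm8712 (0.98). For Jchain they were 2610528J11Rik (0.99), Edem2 (0.99) and Gm8712 (0.99), and for Pigr Prkci (0.99), Mtif2 (0.99) and Gm20939 (0.99). With 6 libraries many genes reach such values, since 52, 112 and 298 genes had an r over 0.9 with Igha, Jchain and Pigr in that order.

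Most heavy chain counts were IgA in each library. The IgG heavy chain gene Ighg1 was not in the deposited count table, so the shares below leave it out. Igha made up 99.0%, 97.2% and 94.0% of the counts of 7 heavy chain constant genes in model 1 to 3, against 97.5%, 98.5% and 89.7% in control 1 to 3. This share, chosen after its values were seen and given without a test, was lowest in model 3 and control 3. Its 95% Wilson intervals cover counting error only and are narrow, for example 93.9% to 94.1% in model 3 and 89.6% to 89.8% in control 3. Ighg2b, an IgG heavy chain, had 37.1, 103 and 139.9 CPM in model 1 to 3, against 77.5, 19.2 and 284 CPM in control 1 to 3. Ighg2c, another IgG heavy chain, had 23.0, 78.2 and 88.8 CPM in model 1 to 3, against 80.5, 26.5 and 103 CPM in control 1 to 3. Both IgG genes were lowest in model 1 and control 2, the libraries with the least Irf4. The IgD gene Ighd, the surface partner of IgM on naive B cells, was at 32.8 CPM in model 3 and 68.8 CPM in control 3, and at most 4.17 CPM in the other 4 libraries. Of the other immunoglobulin constant genes 6 were tested and 0 were called, with a median log2 fold change of -0.29, which was 0.72 without control 3 and 0.11 without model 1. Values of immunoglobulin genes are uncertain because they share sequence and the treatment of reads that match several genes is not given.

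Genes of the plasma cell's secretory machinery and surface showed the same overlap of groups. Of 22 genes 21 were tested, 0 were called in either direction, 14 had positive and 7 negative log2 fold changes, and the median was 0.17 against -0.02 over all tested genes (-0.04 against -0.21 with library size scaling). Without control 2 the median of these genes was -0.06. Xbp1, the transcription factor that expands the secretory apparatus, measured 346 ± 91.0 CPM in model tissue and 275 ± 35.6 CPM in control tissue (SD, n = 3 each). Hsp90b1, an endoplasmic reticulum chaperone, measured 284 ± 76.1 CPM in model tissue and 336 ± 74.6 CPM in control tissue. Herpud1, which serves the degradation of misfolded proteins, was the only one of the 21 at an unadjusted p under 0.05 (edgeR adjusted p = 0.851). It had 481, 148 and 312 CPM in model 1 to 3, against 120.2, 209.5 and 122.5 CPM in control 1 to 3, with a log2 fold change of 1.06 (SE 0.45), and control 2 lay above model 2. These 3 genes are also active in epithelial and exocrine secretory cells. Cd27 was listed at 0 in all libraries.

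Signals for the switch to IgA and for plasma cell survival comprised 24 genes, of which 18 were tested and 0 were called, with 3 positive and 15 negative log2 fold changes and a median of -0.19. The median was 0.16 without control 3 and 0.03 without model 1. Tgfbr2, a receptor chain for the cytokine TGF-beta that directs the switch to IgA, measured 83.0 ± 24.3 CPM in model tissue and 90.2 ± 42.9 CPM in control tissue. Nos2, the inducible nitric oxide synthase, was at 445 CPM in control 3 and between 1.45 and 17.1 CPM in the other 5 libraries (log2 fold change -4.51, SE 1.93, edgeR adjusted p = 0.851). Tnfsf13, the survival factor APRIL, was listed at 0 in all libraries. Of 9 germinal centre markers 7 were tested and 0 were called, with 4 positive and 3 negative log2 fold changes and a median of 0.30, which was -0.50 without model 3. Fas, a death receptor that epithelial cells also carry, measured 45.5 ± 6.93 CPM in model tissue and 30.6 ± 7.79 CPM in control tissue, with groups that did not overlap (edgeR adjusted p = 0.851, unadjusted under 0.05), and Bcl6, the repressor of germinal centre B cells, 37.3 ± 17.0 CPM in model tissue and 25.5 ± 4.54 CPM in control tissue.

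Genes that bring IgA cells to the gut comprised 11 genes, of which 10 were tested and 0 were called, with a median of -0.10, which was 0.33 without control 3 and 0.07 without model 1. The small intestinal chemokine gene Ccl25 measured 418 ± 171 CPM in model tissue and 325 ± 101 CPM in control tissue, and the integrin chain gene Itgb1 293 ± 26.8 CPM in model tissue and 335 ± 45.9 CPM in control tissue. Ccr10, a homing receptor of IgA plasma cells, was listed at 0 in all libraries.

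Genes that induce Pigr or take part in transcytosis comprised 28 genes, of which 25 were tested and 0 were called. They had 18 positive and 7 negative log2 fold changes. Their median was 0.11 against -0.02 over all tested genes (-0.08 against -0.21 with library size scaling). Myo5b, a motor of recycling endosomes, was at 442, 427.5 and 434 CPM in model 1 to 3, against 412, 392 and 355 CPM in control 1 to 3. Its groups did not overlap, as for 11.1% of all tested genes, and its log2 fold change was 0.17 (SE 0.20, edgeR adjusted p = 0.862). Ifngr1, a receptor chain for interferon gamma, measured 249.2 ± 51.5 CPM in model tissue and 192 ± 18.3 CPM in control tissue. Il17a and Ifng, cytokines known to induce Pigr, were too low to be tested, and Myd88 was listed at 0 in all libraries.

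Other cell types that could bear on these genes were also compared. Beside their medians, that of all tested genes was -0.02, or -0.21 with library size scaling and -0.09 with upper quartile scaling. Of T cell markers 9 were tested and 0 called, with 6 positive and 3 negative log2 fold changes and a median of 0.26 (0.07 with library size scaling). The 2 most abundant were Cd8a at 58.6 ± 10.7 CPM in model tissue and 34.9 ± 16.5 CPM in control tissue and Lck at 30.3 ± 1.81 CPM in model tissue and 22.8 ± 0.725 CPM in control tissue (edgeR adjusted p = 0.851 for Lck, unadjusted under 0.05). Groups did not overlap for 2 of the 9 tested T cell markers, Lck among them, against 11.1% of all tested genes. T cell markers summed to 163, 170 and 146 CPM in model 1 to 3, against 118, 125 and 114 CPM in control 1 to 3. Dendritic cell and macrophage markers, of which 10 were tested, had 0 calls and a median of 0.06 (-0.15 with library size scaling, -0.02 with upper quartile scaling, -0.20 without control 2 and -0.22 without model 2), with Csf1r at 68.8 ± 10.9 CPM in model tissue and 70.6 ± 31.3 CPM in control tissue and C1qa at 47.4 ± 9.94 CPM in model tissue and 37.6 ± 12.0 CPM in control tissue. Among Peyer's patch and M cell genes, of which 7 were tested with 0 calls and a median of -0.05 (0.87 without control 3, 0.25 without model 1, 0.29 without model 2 and 0.23 without control 1), Clu measured 90.2 ± 39.0 CPM in model tissue and 55.7 ± 63.6 CPM in control tissue. Gp2, an M cell receptor that pancreatic acinar cells also make, reached 101 CPM in model 3, while no other library exceeded 1.38 CPM (edgeR adjusted p = 0.851, unadjusted under 0.05). Of smooth muscle markers 7 were tested, with 0 calls, 7 negative log2 fold changes and a median of -0.72. That median lay between -0.98 and -0.35 under all 16 alternatives. Myh11 measured 379 ± 85.4 CPM in model tissue and 709 ± 156 CPM in control tissue (edgeR adjusted p = 0.851, unadjusted under 0.05). Its groups did not overlap, as for 11.1% of all tested genes. Acta2 measured 211 ± 86.6 CPM in model tissue and 353 ± 106 CPM in control tissue. Whether these differences in tissue content bear on the members was not tested.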

How the data were processed

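Poly-A RNA from 6 samples of frozen intestinal tissue was sequenced, per the labels' protocols. The authors deposited raw read counts per gene symbol, made with FastQC, Trimmomatic, STAR and featureCounts on GRCm39, per the submitters' processing notes. The sources used here give no versions, annotation, strand or multi-mapping settings, so reads of overlapping or antisense partners may be mixed. Depth per library was 35007515 to 45285564 counts. Each of the 6 columns was matched to a sample by library name, and 0 were left over.

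The whole table was fitted with edgeR 4.0.16 (R 4.3.3) after its filterByExpr filter and TMM scaling, using the robust quasi-likelihood F test with group as the only term and Benjamini-Hochberg adjustment over all 15904 tested genes at 0.05. SEs were derived from the fold change and the F statistic, and 95% intervals use the t quantile of the fit's degrees of freedom. Ratios of deposited counts were compared by exact permutation over the 20 arrangements. Levels per kb used exon lengths of GENCODE M21 (GRCm38), matched by symbol for 96.6% of tested genes. Correlations used log2 CPM. The most similar profiles used log2 CPM with a prior count of 2. Libraries within a group were not duplicates (chi-square of their counts 112 to 543 times its degrees of freedom). The fit was also run on simulated data as a check of the code. What that run recovered is not given here, so it says nothing on the power to find changes in these libraries.

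Members and lists were chosen with earlier results of these data known. The 4 motifs were taken from general knowledge of these factors. Named are all members, and of each other list the 2 most abundant tested genes and those at an unadjusted p under 0.05. For segment and pancreas lists the summed level is given instead. Genes listed at 0, Ighd, Iglc2, Il17a and Ifng were named after their values were seen, and Ighg1 because it was absent. The values of 1 listed gene are not reported here. Alternatives were RLE, upper quartile and library size scaling, DESeq2 1.42.0, limma-voom 3.58.1, a non-robust dispersion, 2 other low-count filters (none, and at least 5 CPM in 3 libraries), the replicate number as a block, medians for ratios, each library left out and, added after seeing the data, model 3 and control 3 left out together.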

Additional observations from a re-analysis of the deposited data

How the results depend on the processing

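The log2 fold changes of Igha and Jchain stayed positive under all 16 alternatives (0.16 to 0.58 for Igha, 0.04 to 0.41 for Jchain), and the smallest adjusted p of any member under any alternative was 0.762. Their size was not stable. Leaving out 1 library at a time gave 0.18 to 0.58 for Igha and 0.07 to 0.41 for Jchain, both lowest without model 1. The number of genes called was 0 under every alternative but DESeq2, which called 25. Irf4 turned negative under upper quartile scaling (-0.086), library size scaling (-0.19) and the 5 CPM filter (-0.034). Leaving model 3 and control 3 out together gave 0.096 for Ighm, -0.053 for Pigr, 0.27 for Prdm1 and 0.046 for Sdc1, and -0.25 for the log2 ratio Pigr/Epcam. Medians in place of means turned Igha/Pigr (-0.23) and Pigr/Epcam (-0.015). Leaving out 1 library at a time gave ranges of -0.98 to 0.86 for Ighm, -0.10 to 0.51 for Pigr, -0.33 to 0.22 for Prdm1, -0.37 to 0.49 for Irf4 and -0.37 to -0.10 for Sdc1, and for log2 ratios -1.02 to 0.46 for Ighm/Jchain, -0.36 to 1.17 for Igha/Ighm, -0.28 to 0.38 for Igha/Pigr, -0.20 to 0.53 for Pigr/Epcam and -0.56 to -0.13 for Sdc1/Epcam. The cause of these changes was not tested. The median of all genes shifted by -0.19 with library size scaling and by -0.076 with upper quartile scaling. With the 5 CPM filter, over the genes it keeps, that median shifted by 0.027.

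Deviations of same-numbered libraries from their group means had correlations of -0.15, -0.27 and 0.31. Model 1 and model 2 correlated best with a library of another number, and model 3 with control 3. Deviations within a group of 3 libraries depend on each other, so these values cannot decide whether replicate numbers pair the libraries. With the replicate number as a block 0 genes were called, 537 genes had an unadjusted p under 0.05, and the log2 fold changes were 0.37 for Igha, 0.24 for Jchain and 0.26 for Pigr. Il17a and Ifng had too few counts to test, and the effect of depth on the other genes was not tested.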
